A study of Mus musculus with 8 samples.

Results

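The major urinary proteins (MUPs) are a family of small secreted proteins, and 10 of their genes are described here in mouse liver: Mup1, Mup2, Mup3, Mup4, Mup5, Mup7, Mup11, Mup17, Mup20 and Mup21. They were matched by Ensembl identifier to the GENCODE annotation of GRCm38, and all 10 were among the 45706 genes of the count table, which holds 21 genes named Mup in all. The 8 libraries came from whole livers of male mice, given in the labels as strain C56B6/J, that had been injected at 6 weeks of age through the tail vein with an AAV2/8 virus. In 4 of them (Srsf10-kd) the virus carried a mirE/shRNA against the splicing factor Srsf10, and in the other 4 (Ctrl, genotype WT in the labels) a control mirE/shRNA. The CBA promoter, which is not itself specific to the liver, drove the shRNA in both groups, and all 8 mice received a diet with 60% of its calories from fat for 12 weeks, begun 4 weeks after injection. No chow-fed, uninjected or female liver was analysed here.

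MUPs belong to the lipocalins, proteins that fold into a barrel around a small hydrophobic ligand. In mice the liver makes most of them, above all in males, where pulses of growth hormone acting through STAT5b, together with androgens, thyroid hormone and glucocorticoids, drive their transcription. They pass through the blood into the urine, where they bind and slowly release volatile pheromones, and some act as pheromones themselves. A set of central genes is nearly identical in sequence, whereas a few peripheral genes at the edges of the cluster have diverged.

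All 10 genes lie on the minus strand of chromosome 4 of GRCm38, in a cluster of Mup genes that spans 2.19 Mb from 59956804 to 62150863. Mup4 (59956804 to 59960710) and Mup7 (60066469 to 60070475) stand at the low end, and Mup20 (62050234 to 62054158), Mup3 (62083476 to 62087342) and Mup21 (62147932 to 62150863) at the high end. Between them lie Mup2 (60135932 to 60154289), Mup1 (60498012 to 60501960), Mup11 (60658466 to 60662411), Mup17 (61591929 to 61595871) and Mup5 (61831319 to 61835233). Their Ensembl identifiers are ENSMUSG00000078683 for Mup1, ENSMUSG00000078688 for Mup2, ENSMUSG00000066154 for Mup3, ENSMUSG00000041333 for Mup4, ENSMUSG00000058523 for Mup5, ENSMUSG00000073842 for Mup7, ENSMUSG00000073834 for Mup11, ENSMUSG00000096688 for Mup17, ENSMUSG00000078672 for Mup20 and ENSMUSG00000066153 for Mup21. Each has 7 exons in the transcript used, except Mup21 with 6. The coding sequences fall into 2 kinds. Mup1, Mup2, Mup7, Mup11 and Mup17 were 98.4% to 99.4% identical to one another over 10 pairs and differed at 1 to 7 aligned bases. The other 35 pairs were 82.2% to 94.8% identical, with Mup3 and Mup21 the closest of them and Mup3 and Mup7 the farthest apart. The 75 coding bases that vary most among the members, as long as a single sequencing read of this study, show what a read can and cannot tell apart. Capitals mark a base that differs from the commonest base of the 10 members at that position (where 5 members carry a base and 5 another, the base earlier in the alphabet is in lower case), and each stretch is in the coding sense, 5′ to 3′, from base 226 to 300 of the coding sequence in Mup1, Mup2, Mup5, Mup7 and Mup17, 229 to 303 in Mup11, Mup20 and Mup21, 238 to 312 in Mup3 and 220 to 294 in Mup4.
Mup1: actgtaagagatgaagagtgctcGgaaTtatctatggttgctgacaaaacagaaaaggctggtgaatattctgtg
Mup2: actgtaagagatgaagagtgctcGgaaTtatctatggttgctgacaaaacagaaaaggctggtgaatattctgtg
Mup3: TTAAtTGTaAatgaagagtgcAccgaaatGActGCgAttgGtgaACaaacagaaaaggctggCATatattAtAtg
Mup4: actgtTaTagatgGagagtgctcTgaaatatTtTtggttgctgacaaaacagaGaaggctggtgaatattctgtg
Mup5: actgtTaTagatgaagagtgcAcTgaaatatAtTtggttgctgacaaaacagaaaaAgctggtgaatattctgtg
Mup7: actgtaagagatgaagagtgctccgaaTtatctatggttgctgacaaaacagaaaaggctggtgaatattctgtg
Mup11: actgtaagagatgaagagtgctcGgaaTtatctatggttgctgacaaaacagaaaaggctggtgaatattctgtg
Mup17: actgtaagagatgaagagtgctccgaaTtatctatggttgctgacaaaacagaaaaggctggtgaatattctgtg
Mup20: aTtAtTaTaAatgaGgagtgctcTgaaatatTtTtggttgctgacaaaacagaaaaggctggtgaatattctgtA
Mup21: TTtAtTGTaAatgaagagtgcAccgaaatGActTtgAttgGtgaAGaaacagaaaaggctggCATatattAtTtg
The 10 stretches hold 7 distinct sequences over 30 variable positions. Mup1, Mup2 and Mup11 read the same here, as do Mup7 and Mup17, while Mup3 carries 22 capitals and Mup21 carries 20. Mup7 and Mup17 each share this stretch with 7 other Mup genes, and Mup1, Mup2 and Mup11 each with 6, whereas those of Mup3, Mup4, Mup5 and Mup21 occur in no other gene.

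This sharing bears on every level given below, because gene counts of the kind deposited keep a read only when it maps to a single place. Of all 75-base windows along the annotated transcripts, 81.1% for Mup7, 77.8% for Mup2, 73.7% for Mup11, 68.7% for Mup17 and 57.8% for Mup1 also occur in another gene. The share was 43.6% for Mup20, all of it in the pseudogene Mup-ps19, which itself held 1 to 9 counts a library. It was 10.3% for Mup21, 5.44% for Mup3, 4.58% for Mup5 and 0.354% for Mup4. No member had a window shared only with genes outside the family (0 windows). Counts for the 5 near-identical genes are therefore uncertain in the split between them, and those for Mup3, Mup21, Mup4 and Mup5 much less so.

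Srsf10 itself, on chromosome 4 at 135855747 to 135869908, did not fall below Ctrl in the Srsf10-kd livers. Its normalised count was 36.4 ± 3.24 CPM (counts scaled to library size; SD, n = 4) in them and 32.9 ± 1.99 CPM in Ctrl, and the groups overlapped (log2 fold change 0.15 ± 0.10 SE, edgeR quasi-likelihood test, Benjamini-Hochberg adjusted p = 0.378). The directions below therefore compare livers by their labels. For mice given the shRNA against Srsf10, the paper reports lower Srsf10 RNA by qPCR and lower protein by western blot. Hepatocyte markers dominated every library, with 10 marker genes summing to 88987 to 120877 CPM, against 215 to 393 CPM for 10 macrophage markers and 3.15 to 5.05 CPM for 8 lymphocyte markers. The summed level of 8 cholangiocyte markers was 56.6 to 75.4 CPM in Srsf10-kd and 43.5 to 50.8 CPM in Ctrl, and that of 5 erythrocyte genes 294 to 800 CPM and 292 to 380 CPM. Their part in the results below was not tested. On the first principal component of expression (44.8% of the variance), Srsf10-kd 3 stood farthest out, at 67.4. Srsf10-kd 1, 2 and 4 were at 1.92, 7.33 and 11.5, and Ctrl 1 to 4 at -20.2, -23.3, -2.91 and -41.8. All Srsf10-kd livers thus lay above all Ctrl livers on it, with Ctrl 4 at the other end. Library totals ran from 50456404 to 59697241 counts. In whole liver, fewer cells of a type and less RNA per cell cannot be told apart.

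The 10 genes together took up 1.66% to 3.32% of all counts in a liver, or 85.6% to 89.3% of the counts of all 21 Mup genes. Their summed level was 27812, 16065, 35327 and 25704 CPM in Srsf10-kd 1 to 4 and 19025, 17607, 29889 and 19708 CPM in Ctrl 1 to 4. The liver with the lowest sum and the liver with the highest sum were thus both labelled Srsf10-kd, and Ctrl 3 lay above 3 of the 4 Srsf10-kd livers. The mean share of all counts was 2.59% ± 0.697 (SD, n = 4) in Srsf10-kd and 2.16% ± 0.547 (SD, n = 4) in Ctrl, a gap smaller than either spread. Most of these counts came from few genes: Mup3, Mup20 and Mup7 made up 87.3% to 93.8% of the members' counts in each liver. Mup3 alone held 48.0% ± 6.45 (SD, n = 4) of them in Srsf10-kd and 47.6% ± 6.19 in Ctrl, and the share of Mup7 ranged most in proportion, from 5.09% in Ctrl 2 to 19.1% in Ctrl 4. The plot of shares by library shows the composition.

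Set per length of exon, the members covered a wide range in Ctrl livers. Mup3 stood at 9464 ± 1820 CPM per kb (SD, n = 4), Mup20 at 7350 ± 2964, Mup7 at 2571 ± 1266, Mup17 at 848 ± 335, Mup21 at 585 ± 86.7, Mup11 at 443 ± 165, Mup1 at 54.0 ± 26.0, Mup2 at 5.87 ± 1.29, Mup5 at 0.609 ± 0.180 and Mup4 at 0.117 ± 0.0483 CPM per kb. Mup3 was above Mup20 in 7 of the 8 livers. Mup17, Mup21 and Mup11 were not cleanly ordered, each neighbouring pair holding its order in 6 of 8 livers, and every other neighbouring pair kept its order in all 8.

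Part of this order depends on how much of each gene a read can be assigned to. Divided by the number of 75-base windows found in no other gene, the Ctrl level was 14151 CPM per 1000 unique windows for Mup20, 12705 for Mup7, 9376 for Mup3, 2944 for Mup17, 1685 for Mup11, 732 for Mup21, 128 for Mup1, 28.0 for Mup2, 0.694 for Mup5 and 0.128 for Mup4. Mup20 and Mup7 then stood above Mup3, and Mup11 above Mup21. Windows of 50 bases put Mup7 first, at 18440 CPM per 1000 windows, and windows of 250 bases put Mup20 first at 12701, with Mup3 at 7686 and Mup7 at 3843. The first 3 places were held by Mup20, Mup7 and Mup3 at every window length, though not in the same order, and Mup1, Mup2, Mup5 and Mup4 came last in that order each time. Exons and windows were counted over every annotated transcript of a gene. The exons joined to 1584 bases for Mup1 and 1336 for Mup2, against 927 in the transcript used for each coding sequence. A low place of these genes therefore need not mean a low level.

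**Figure D1:**
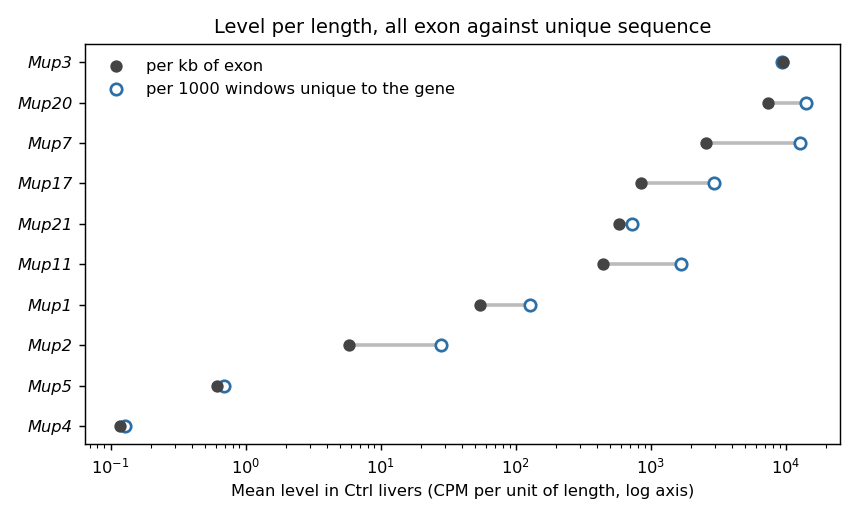
Mean level in the 4 Ctrl livers per kb of exon (filled) and per 1000 transcript windows of 75 bases found in no other gene (open), on a log axis, for the 10 members. The near-identical genes Mup7, Mup17, Mup11, Mup1 and Mup2 shift to the right the most, with Mup7 moving from 2571 to 12705, while Mup3, Mup5 and Mup4 hardly move.

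Genes with nearly the same promoter differed widely in counted level. RefSeq promoter windows of GRCm38.p6 were given for 7 of the 10 members: Mup2, Mup3, Mup4, Mup7, Mup11, Mup17 and Mup21. Those of Mup2 and Mup17 were 99.3% identical over the aligned part of the 300-base window. In Ctrl, Mup17 stood at 848 and Mup2 at 5.87 CPM per kb. Of their 75-base transcript windows, 77.8% for Mup2 and 68.7% for Mup17 occur in another gene, where a read is not counted. The exons of Mup2 join to 1336 bases, against 927 in the transcript used for its coding sequence. How much of the gap comes from counting was not tested. The promoter windows of Mup3 and Mup21, the closest pair among the diverged genes, were 93.9% identical. The 250 bases before the annotated start are shown for these 4 genes, in the sense of the gene, at chr4:60139857-60140106 for Mup2, chr4:61595833-61596082 for Mup17, chr4:62087318-62087567 for Mup3 and chr4:62150842-62151091 for Mup21, all on the minus strand. Capitals mark bases that differ from, or are missing in, the other gene of the pair (Mup2 with Mup17, Mup3 with Mup21).
Mup2: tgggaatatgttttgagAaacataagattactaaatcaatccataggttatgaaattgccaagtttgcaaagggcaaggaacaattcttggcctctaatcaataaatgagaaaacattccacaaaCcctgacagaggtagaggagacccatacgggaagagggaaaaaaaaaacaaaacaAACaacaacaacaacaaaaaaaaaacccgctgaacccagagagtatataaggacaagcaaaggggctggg
Mup17: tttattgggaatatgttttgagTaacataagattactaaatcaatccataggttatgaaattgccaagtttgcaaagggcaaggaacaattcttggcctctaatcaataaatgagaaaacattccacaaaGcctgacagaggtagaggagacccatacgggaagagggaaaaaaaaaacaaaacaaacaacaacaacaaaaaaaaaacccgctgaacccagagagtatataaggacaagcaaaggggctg
Mup3: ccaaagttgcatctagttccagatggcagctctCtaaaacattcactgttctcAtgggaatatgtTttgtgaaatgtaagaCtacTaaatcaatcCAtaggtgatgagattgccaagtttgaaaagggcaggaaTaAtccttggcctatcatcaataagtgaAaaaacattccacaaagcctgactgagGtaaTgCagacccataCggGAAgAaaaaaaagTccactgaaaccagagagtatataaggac
Mup21: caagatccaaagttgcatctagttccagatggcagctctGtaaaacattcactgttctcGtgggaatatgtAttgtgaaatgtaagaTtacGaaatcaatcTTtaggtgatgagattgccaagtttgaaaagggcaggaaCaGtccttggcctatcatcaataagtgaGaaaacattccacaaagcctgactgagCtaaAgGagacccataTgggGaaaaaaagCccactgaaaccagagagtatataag
Mup2 and Mup17 differ by 2 substitutions and 3 unpaired bases over 245 aligned bases, and Mup3 and Mup21 by 16 substitutions and 3 unpaired bases over 244. On either strand, the STAT5-type letters TTCNNNGAA were in 0 of the 7 member windows of 300 bases (8.29% of 32817 promoters of that length), TTGCNNAA in 0 (10.8%) and ACANNNTGT in 0 (6.85%). CCAAT was found in Mup7, Mup11 and Mup17 (37.4% of all promoters) and TATAAA in Mup4 (13.6%). TATATAAG, a motif searched after the windows had been seen, was in the windows of Mup2, Mup3, Mup11, Mup17 and Mup21 and in 1.01% of all promoters. These are matches of letters only. The windows are also cut at different places of the shared sequence. That of Mup2 begins within the bases that read CCAAT on the other strand in Mup17. That of Mup7 ends before the stretch where Mup2 and Mup17 carry TATATAAG. A missing match therefore need not mean that the gene lacks the letters.

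Between the groups, 0 of the 9 members that could be tested passed an adjusted p of 0.05 (edgeR quasi-likelihood test over 15491 genes). Among all genes tested, 0.071% passed, all of them lower in Srsf10-kd. At an unadjusted p under 0.05 the members again numbered 0, where 21.8% of all genes passed. DESeq2 called 0 members, with 5.21% of its genes called, and limma-voom with quality weights called 0, with 11.7% called. For all 10 members the 2 groups overlapped, whereas 14.3% of genes tested did not overlap. The fitted log2 fold change was above 0 in 7 of the 9 members, beside 51.3% of all genes, and its median was 0.26, beside 0.01 over all genes. This tally depended on the processing and on Srsf10-kd 3: with the trend of counts on transcript length removed from each library, 4 of 9 were above 0 with a median of -0.00798, and without Srsf10-kd 3, 5 of 9 were above 0 with a median of 0.05. The filter on low counts removed Mup4. All members were measured in the same livers, and the near-identical ones share sequence, so their values are not separate observations.

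**Figure D2:**
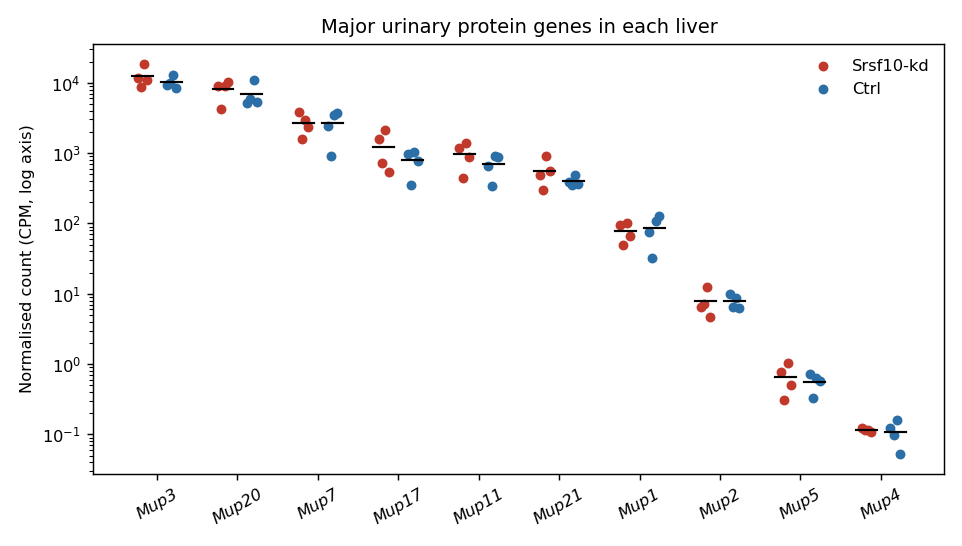
Normalised count in CPM on a log axis (y) of each member (x, ordered by the Ctrl mean) in every liver, with Srsf10-kd in red, Ctrl in blue and a black bar at each group mean of 4. The groups overlap for each of the 10 genes.

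Among the diverged, strongly expressed genes, Mup3 had the highest level per kb of exon. Its level was 11592, 8676, 18740 and 11102 CPM in Srsf10-kd 1 to 4 and 9320, 9831, 12884 and 8396 CPM in Ctrl 1 to 4. Srsf10-kd 3 stood highest and the remaining Srsf10-kd livers lay among the Ctrl values. The fold change was 1.24 (log2 0.31 ± 0.24 SE, 95% interval -0.23 to 0.85, edgeR adjusted p = 0.447), and the exact two-sided permutation test over 70 assignments of the livers, which can go no lower than p = 0.0286, gave p = 0.371. Without Srsf10-kd 3 the log2 fold change was 0.05, and it lay between 0.05 and 0.45 with any single liver left out.

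Mup20, also called darcin, encodes a male pheromone that attracts females and prompts them to remember the place of a scent mark. It was at 9031, 4274, 9100 and 10194 CPM in Srsf10-kd 1 to 4. The Ctrl livers were at 5170, 5793, 10928 and 5391 CPM, so that the highest of all 8 was Ctrl 3 and the lowest was Srsf10-kd 2. The log2 fold change was 0.26 ± 0.32 SE (95% interval -0.45 to 0.96, edgeR adjusted p = 0.630, exact permutation p = 0.486). Ctrl 3 stood far from the other 3 Ctrl livers, and without it the log2 fold change was 0.58. It was 0.13 without Srsf10-kd 4, 0.14 without Ctrl 1 and 0.16 without Ctrl 4.

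Mup21, the gene closest to Mup3 in coding sequence, was at 485, 298, 905 and 551 CPM in Srsf10-kd 1 to 4 and at 385, 351, 481 and 366 CPM in Ctrl 1 to 4. The Ctrl livers lay close together, and the Srsf10-kd livers spread around them, with Srsf10-kd 2 below all 4 and the other Srsf10-kd livers above them. Its log2 fold change of 0.50 ± 0.28 SE had the smallest adjusted p among the members (95% interval -0.13 to 1.13, edgeR adjusted p = 0.309, exact permutation p = 0.314). Without Srsf10-kd 3 it was 0.17, and without Srsf10-kd 2 it was 0.71 with an unadjusted edgeR p of 0.0109 and an adjusted p of 0.145.

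Of the near-identical genes, Mup17 had the largest difference. It was at 1560, 733, 2093 and 544 CPM in Srsf10-kd 1 to 4 and at 968, 352, 1046 and 778 CPM in Ctrl 1 to 4. Srsf10-kd 1 and 3 were above every Ctrl liver, and Srsf10-kd 2 and 4 were below 3 of them. The log2 fold change was 0.65 ± 0.44 SE (95% interval -0.34 to 1.64, edgeR adjusted p = 0.385, exact permutation p = 0.343). It was 0.27 without Srsf10-kd 3.

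Mup11 was at 1198, 443, 1380 and 873 CPM in Srsf10-kd 1 to 4 and at 659, 345, 906 and 880 CPM in Ctrl 1 to 4. Srsf10-kd 1 and 3 again lay above the Ctrl livers, and Srsf10-kd 2 above only Ctrl 2. The log2 fold change was 0.48 ± 0.37 SE (95% interval -0.34 to 1.31, edgeR adjusted p = 0.437, exact permutation p = 0.400). Leaving out Srsf10-kd 2 moved the log2 fold change to 0.72 (edgeR unadjusted p = 0.0456, adjusted p = 0.207), whereas it was 0.27 without Srsf10-kd 3 and 0.25 without Ctrl 2.

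Mup7 was at 3844, 1584, 2994 and 2370 CPM in Srsf10-kd 1 to 4 and at 2437, 896, 3526 and 3764 CPM in Ctrl 1 to 4. The group means were 2698 ± 957 and 2655 ± 1308 CPM (SD, n = 4), and both groups held high and low livers. The log2 fold change was 0.02 ± 0.41 SE (95% interval -0.89 to 0.93, edgeR adjusted p = 0.977). It fell below 0 when any of 4 different livers was left out.

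Mup1, a circulating MUP known for effects on glucose and lipid metabolism, was at 94.9, 49.5, 101 and 65.4 CPM in Srsf10-kd 1 to 4. It was at 75.3, 32.4, 109 and 125 CPM in Ctrl 1 to 4, so that the lowest and the highest liver were both Ctrl. The log2 fold change was -0.14 ± 0.37 SE (95% interval -0.97 to 0.70, edgeR adjusted p = 0.839, exact permutation p = 1). Its direction depended on the method, at 0.34 with limma-voom and quality weights.

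Mup2 had far fewer counts than the other near-identical genes, 262 to 649 a library. It was at 6.52, 7.25, 12.6 and 4.67 CPM in Srsf10-kd 1 to 4 and at 9.91, 6.54, 8.59 and 6.30 CPM in Ctrl 1 to 4. The Srsf10-kd livers held both the lowest and the highest value, and the log2 fold change was -0.01 ± 0.28 SE (95% interval -0.64 to 0.61, edgeR adjusted p = 0.979, exact permutation p = 0.857). Genes of the table joined by sharing most of the windows of a gene with a single other gene, 14 in all with Mup1, Mup2, Mup7 and Mup11 among them, were also summed to 1 row. Mup17, whose closest gene Mup13 holds 44.4% of its windows, was not in the sum. The summed row had a log2 fold change of 0.12 ± 0.32 SE (95% interval -0.58 to 0.83, edgeR adjusted p = 0.832), with 4267 to 9471 CPM in Srsf10-kd and 3491 to 8681 CPM in Ctrl.

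Mup4 and Mup5 are known mainly from glands of the nose, eye and mouth rather than from the liver, and both were near the floor here. Mup5 had 16 to 53 counts a library, or 0.784, 0.308, 1.03 and 0.499 CPM in Srsf10-kd 1 to 4 and 0.712, 0.327, 0.637 and 0.579 CPM in Ctrl 1 to 4. Its log2 fold change was 0.22 ± 0.37 SE (95% interval -0.61 to 1.05, edgeR adjusted p = 0.731, exact permutation p = 0.771). Mup4 had 3 to 8 counts a library, 0.107 to 0.122 CPM in Srsf10-kd and 0.0527 to 0.159 CPM in Ctrl, so no difference of moderate size was detectable at this depth (exact permutation p = 0.686). With no filter on low counts its log2 fold change was 0.10 (edgeR adjusted p = 0.928).

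The 95% intervals bound what these livers could hide. All 9 included 0. None reached down to -1 on the log2 scale, whereas those of Mup5, Mup11, Mup17 and Mup21 reached above 1. The 11 other Mup genes of the table were all tested and 0 were called. Their groups overlapped for all 11, their log2 fold changes ran from -0.23 to 1.39, and the smallest adjusted p was 0.232. Without Srsf10-kd 3 those log2 fold changes ran from -0.31 to 0.66.

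**Figure D3:**
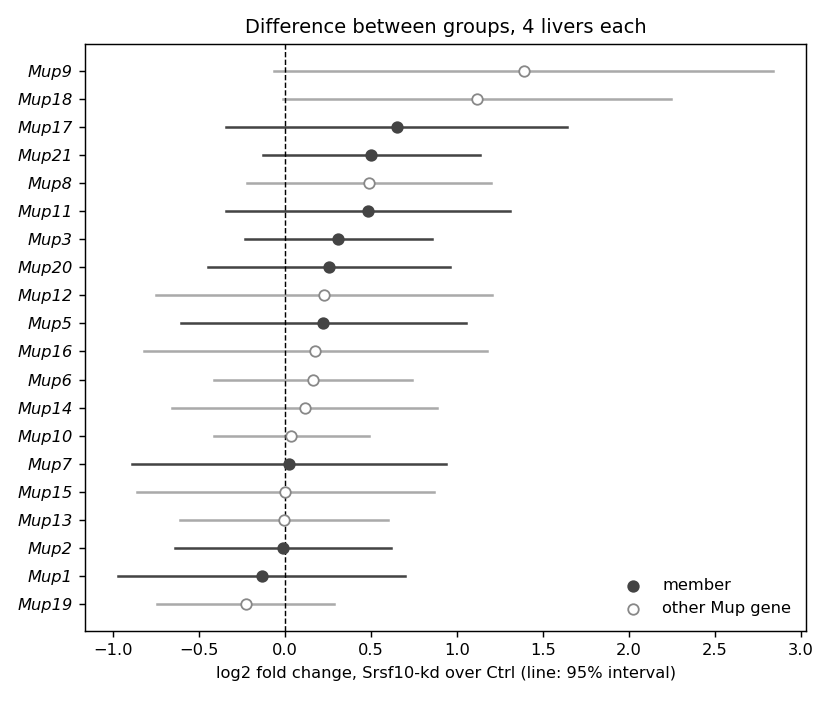
Log2 fold change of Srsf10-kd over Ctrl (x axis) with its 95% interval for the 20 Mup genes tested (y axis), members filled and other Mup genes open, 4 livers a group. Every interval crosses 0.

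The spread between livers of the same group was wide. Within a group, the SD of log2 CPM was 0.38 to 0.82 for the 9 tested members, beside a median of 0.22 over 12142 genes with a mean of at least 1 CPM. It was larger than that of 84.0% of those genes for Mup3 and of 98.6% for Mup17. The members did not all vary together. Mup1, Mup7, Mup11 and Mup17 were each lowest in Ctrl 2, by 1.15 to 1.45 log2 units below their mean, where Mup3 was only 0.16 below. Mup5, Mup20 and Mup21 were lowest in Srsf10-kd 2, and 6 of the 10 members were highest in Srsf10-kd 3.

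**Figure D4:**
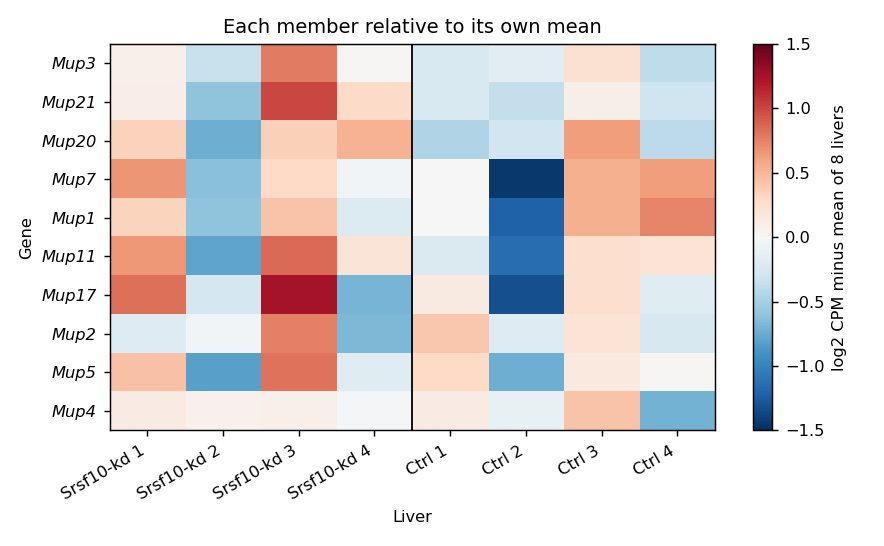
Log2 CPM of each member (rows) in each liver (columns) minus that gene's mean over the 8 livers, red above and blue below, with a line between the groups. Mup7, Mup1, Mup11 and Mup17 are lowest in Ctrl 2, and most members are high in Srsf10-kd 3.

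Across the 8 livers, Pearson's r of log2 CPM was 0.97 between Mup1 and Mup7 (Spearman's rho 0.86), and 53.9% of the 75-base windows of Mup7 occur in Mup1. Mup3 and Mup21, which share 5.44% of the windows of Mup3, had r of 0.94 (rho 0.79). Pearson's r was 0.31 between Mup3 and Mup7 and 0.48 between Mup7 and Mup20. These are descriptions over libraries that also differ in length bias and in the position of Srsf10-kd 3. Outside the family, the 5 genes whose log2 CPM followed the log2 summed Mup level most closely, of 12115 ranked, were Serpina1a (r = 0.97), Dhrs1 (0.96), Fabp1 (0.96), Tmem263 (0.96) and Ccdc51 (0.95), with rho from 0.86 to 0.98. Serpina1a encodes a secreted protease inhibitor with near-identical paralogs, so its own count is uncertain, and Fabp1 encodes the liver fatty acid carrier. With Srsf10-kd 2 and 3, the livers farthest from the median, left out, r was 0.91 to 0.99, and with each group centred on its mean it was 0.95 to 0.97. The 5 genes were picked by r over these same livers, so these values are not a separate check.

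In the growth hormone pathway that drives MUP transcription, 0 of 18 listed genes were called, beside 0.071% of all genes tested. At an unadjusted edgeR p under 0.05 the list held 1 higher and 3 lower genes, where 21.8% of all genes tested passed. Ghr, the growth hormone receptor, had a log2 fold change of -0.08 ± 0.18 SE (edgeR adjusted p = 0.802), Stat5b of -0.09 ± 0.15 (adjusted p = 0.717), and Igf1, the hormone induced by the pathway, of 0.11 ± 0.18 (adjusted p = 0.733). The feedback inhibitors Socs2 and Cish, short-lived readouts of a recent pulse, varied far more between livers than the receptor. Socs2 was at 8.87, 5.73, 40.7 and 21.1 CPM in Srsf10-kd 1 to 4 and between 3.78 and 13.1 CPM in Ctrl, and Cish reached 51.0 CPM in Srsf10-kd and 26.1 CPM in Ctrl. For both genes Srsf10-kd 3, the liver with the most MUP RNA, was the highest. Ctrl 3 had the next highest summed MUP level but the lowest Socs2 of all livers, 3.78 CPM, and Cish at 5.63 CPM. Ctrl 1, with Cish at 26.1 CPM, had a lower summed MUP level than Ctrl 3. These livers were named after their values had been seen, and the relation was not tested. Bcl6, a repressor opposed to STAT5, ran from 5.63 to 23.4 CPM in Srsf10-kd and from 11.3 to 57.5 CPM in Ctrl (log2 fold change -1.23 ± 0.55 SE, edgeR adjusted p = 0.227).

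Of 13 transcription factors known to act on Mup genes or on liver transcription, 0 were called. Zhx2, a regulator of Mup genes, was at 9.47 to 10.7 CPM in Srsf10-kd and 8.02 to 13.2 CPM in Ctrl (log2 fold change -0.14 ± 0.16 SE, edgeR adjusted p = 0.594). Cebpb, a factor of the acute phase response, had 0.71 ± 0.18 (adjusted p = 0.119), Hnf4a -0.50 ± 0.17 (0.155) and Thrb, a thyroid hormone receptor, -0.44 ± 0.12 (0.130). At an unadjusted p under 0.05 the list held 1 higher and 4 lower genes of 13, where 21.8% of all genes tested passed.

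Other genes that differ between male and female liver were set beside the MUPs. Of 21 male-biased genes, 0 were called, 9 were above 0 and 12 below, and their median log2 fold change was -0.01. The largest differences were in Moxd1 (1.13, edgeR adjusted p = 0.518), Selenbp2 (0.75, adjusted p = 0.561), Egfr (-0.54, adjusted p = 0.331) and Slco1a1 (-0.53, adjusted p = 0.222). Of 24 female-biased genes, 16 were tested and 0 were called. Of these 16, 13 were above 0, beside 51.3% of all genes, and their median was 0.56. The largest differences were in Cyp2b13 (5.17, edgeR adjusted p = 0.168), Cyp2a4 (2.93, 0.247), Hao2 (2.39, 0.322) and Cyp2b9 (1.39, 0.518). Their medians in Srsf10-kd and Ctrl were 1.78 and 0.789, 1.52 and 0.988, 0.649 and 0.569, and 21.2 and 30.7 CPM. The tally is not given here without Srsf10-kd 2, where all 4 were highest. In Srsf10-kd 2, which had the lowest summed MUP level of the 8, Cyp2b13 was at 111 CPM against 0.0351 to 3.03 in the others, Cyp2a4 at 47.1 against 0.316 to 4.28, Hao2 at 15.0 against 0.0176 to 1.91 and Cyp2b9 at 362 against 3.28 to 90.5. Not every gene of the list was highest in that liver. Ctrl 2, with the lowest summed MUP level among the Ctrl livers, had the next highest Cyp2b9, Cyp2a4 and Hao2, whereas the next highest Cyp2b13, at 3.03 CPM, was in Srsf10-kd 3, the liver with the highest summed MUP level. These genes and livers were named after their values had been seen, and the relation was not tested.

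Among 11 other lipocalins, 9 were tested, 0 were called and all 9 were above 0, beside 51.3% of all genes. Their median log2 fold change was 0.56. The largest differences were in Orm3 at 2.14 ± 0.71 SE (edgeR adjusted p = 0.155), Lcn2 at 1.29 ± 0.47 (0.173), Orm2 at 0.79 ± 0.33 (0.209) and Orm1 at 0.66 ± 0.26 (0.189), genes of the acute phase response. Of 20 abundant secreted proteins of the hepatocyte, 0 were called and 17 were above 0, with a median of 0.15. Trf, which encodes the iron carrier transferrin, had 1.07 ± 0.31 SE (edgeR adjusted p = 0.133) with no overlap between the groups, and Alb, albumin, had 0.22 ± 0.20 (adjusted p = 0.502). The groups did not overlap for 1 of the 20 genes, beside 14.3% of all genes tested. The summed level of this list was 155050 to 180741 CPM in Srsf10-kd and 137389 to 159812 CPM in Ctrl. Libraries differed in their slope on transcript length, 0.43 to 0.58 in Srsf10-kd and 0.58 to 0.74 in Ctrl. Neither the lipocalins nor the secreted proteins are given here with the length trend removed or without Srsf10-kd 3. The tally of the Mup members moved under both settings.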

How the data were processed

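Poly(A) RNA of 8 whole livers was sequenced as paired-end reads of 75 bases. The authors aligned the reads to GRCm38 (mm10) with STAR 2.7.7a and deposited its raw counts per gene; the annotation release and the strand column are not given in the sources used here. Such counts leave out reads that map to several places. The study gives 4 mice a group. Library totals were 50456404 to 59697241 counts.

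From the counts, edgeR 4.0.16 (R 4.3.3) gave TMM-normalised CPM and quasi-likelihood tests, with filterByExpr, over 15491 genes with Benjamini-Hochberg adjustment, and 0.05 as the threshold. Named genes were the 10 members, Ghr, Stat5b, Igf1, Zhx2, Srsf10, up to 4 genes a list with the largest log2 fold change at a mean of at least 1 CPM, and the 5 genes most correlated with the summed Mup level. The members and gene lists were chosen with earlier results of these data known. DESeq2 1.42.0 and limma 3.58.1 (voom) were alternatives, with other scalings, filters, a replicate block, removal of a length trend and leaving out each liver. The script was tested on simulated data. Windows and coding identity came from GENCODE transcripts; nucleotide identity replaced the planned protein identity, and promoters are from RefSeq. No 2 libraries agreed within sampling noise (chi-square over its degrees of freedom was at least 46.5 in all 28 pairs). A gene that the naming rule selects is not reported here.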

Additional observations from a re-analysis of the deposited data

Results flagged for a closer look

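Mup20 stood at 10928 CPM in Ctrl 3, far from the 5170 to 5793 CPM of the other Ctrl livers. Its gap to the nearest of them was 0.892 of the group's range, above Dixon's 95% critical value for 4 samples. In all, 22 groups of 4 livers were examined, of which about 1.1 would be set apart by chance.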

How the results depend on the processing

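The count of Mup members past the threshold was 0 under every alternative run. The number of genes past it among all genes was 11 (0 higher, 11 lower). It was 819 with DESeq2 (311 higher, 508 lower), 1814 with limma-voom and quality weights (779 higher, 1035 lower), 46 with no filter on low counts, and 0 to 544 with 1 liver left out: dropping Srsf10-kd 1, 2 or 4 or Ctrl 2 gave 0, dropping Ctrl 1 gave 4, Ctrl 4 gave 5, Srsf10-kd 3 gave 64 and Ctrl 3 gave 544. With the replicate number as a replicate block it was 59, and same-numbered livers deviated together with r of -0.18, 0.21, 0.27 and 0.22, so the numbers were not taken to pair the livers; the block changed the call of no member, with Mup11 at 0.45 (edgeR unadjusted p = 0.0216, adjusted p = 0.127). Of 158 alternative values of the members' log2 fold changes, 142 kept direction and call and 16 turned direction, with adjusted p from 0.127 to 0.999. With limma-voom Mup1 was 0.34, Mup7 0.63, Mup2 -0.33, Mup20 0.49, Mup3 0.19 and Mup11 0.73. With the length trend removed Mup5 was -0.10, Mup7 -0.24, Mup20 -0.00798, Mup1 -0.45, Mup2 -0.34, Mup3 0.0039, Mup11 0.17, Mup17 0.32 and Mup21 0.11. With 1 liver left out, Mup1 ran from -0.41 to 0.10, Mup2 from -0.35 to 0.17, Mup5 from -0.0736 to 0.45, Mup7 from -0.27 to 0.24, Mup3 from 0.05 to 0.45, Mup11 from 0.25 to 0.72, Mup17 from 0.27 to 0.90, Mup20 from 0.13 to 0.58 and Mup21 from 0.17 to 0.71. The causes were not tested. Windows of 250 bases and the letters TATATAAG were chosen after seeing the data. Depth limits Mup4, with 3 to 8 counts a library.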
